A study of Homo sapiens with 6 samples.

Results

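The histone genes of the human genome were followed in cells with and without knockdown of VprBP, the protein encoded by DCAF1. Members were all protein-coding genes whose symbol begins with H1-, H2AC, H2BC, H3C, H4C, H2AZ, H2AX, H2AJ, MACROH2A or H3-. The rule gave 56 of the 21494 genes in the table, of which 45 were clustered genes and 11 were variant genes. The clustered genes comprised 4 of H1, 11 of H2A, 13 of H2B, 10 of H3 and 7 of H4, and the variants comprised 6 of H2A, 3 of H3 and 2 of H1. In hg38, 36 clustered genes lie on chromosome 6 between positions 26020451 and 27893891, and 9 lie on chromosome 1 between positions 149782689 and 149887411.

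Gene-level RNA-seq counts were available for 3 Control sh and 3 VprBP sh samples. Control sh is labelled wild type for the gene, and VprBP sh is labelled as a DCAF1 knockdown. Per the methods, VprBP sh cells were infected with a pLKO.1 lentivirus carrying a single shRNA against the VprBP coding region and selected with puromycin, so they are a selected population with 1 shRNA. The labels name the cell line as G361, a human melanoma line, but give LD611 as the source. Nothing states whether samples of a group came from separate cultures, so all p-values measure only the spread between these samples.

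Clustered histone genes are transcribed mainly during DNA replication, and most of their mRNAs end in a short hairpin, the stem-loop, in place of a poly(A) tail. Variant genes are expressed throughout the cell cycle, generally give polyadenylated mRNAs, and encode histones with roles such as DNA damage signalling for H2AX or replication-independent deposition for the H3.3 genes H3-3A and H3-3B. VprBP is described in the study as a kinase that phosphorylates threonine 120 of histone H2A.

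Each sample held between 18195949 and 26883948 estimated counts. The share of counts from mitochondrial genes was 1.96 to 1.98% for Control sh samples against 4.10 to 4.48% for VprBP sh samples. Replicates 2 and 3 of each group were closer to each other than to replicate 1, with chi-square values per degree of freedom of 2.50 and 2.36 against 17.6 to 29.1 for the other pairs. Of the melanocyte markers, MITF had 154 to 312 counts and PMEL 28 to 46, while MLANA had 5 or fewer and TYRP1 4 or fewer in every sample, and TYR, DCT and SOX10 were not analysed here. Of the urothelial markers, KRT5 had 48190 to 73688 counts in the Control sh samples against 2582 to 4524 in VprBP sh, and KRT7 had 31453 to 36124 and 15710 to 30647. UPK1B had 500 to 709 counts in the Control sh samples against 0 in every VprBP sh sample, UPK2 had 176 to 220 and 26 to 73, and GATA3 had 0 to 7 and 1334 to 1873. KRT20 and UPK3A were not analysed here. These markers, the mitochondrial share and the histone genes moved with the same 6 samples, and the part of the former in the results below was not tested.

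DCAF1, on chromosome 3 from 51395867 to 51500015 on the minus strand, had 688, 893 and 884 counts in the Control sh samples against 681, 488 and 628 in VprBP sh. Counts divided by upper quartile scale factors, called normalized counts here, were 869 ± 90.6 (SD, n = 3) and 583 ± 154 (SD, n = 3). The groups did not overlap on this scale. When counts were divided by all counts of the sample they overlapped, with VprBP sh replicate 1 above Control sh replicates 1 and 3. The log2 fold change was -0.58 with a standard error of 0.17 and an adjusted p of 0.0125 in edgeR's quasi-likelihood test. The fold change did not reach the factor of 2 that was required, with an adjusted p under 0.05, to call a gene. By an exact permutation test (two-sided), p was 0.1, and 3 against 3 samples allow no smaller value.

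Several features of the gene sequences are described next. The first is the stem-loop, shown because it is where such an mRNA can end. A 16-base stem-loop was found within 100 bases after the stop codon in 44 of the 45 clustered genes, in 1 of the 11 variants (H2AX), and in 69 of 19924 protein-coding genes (0.346%). The clustered gene without one in this window was H3C6. GENCODE 44 also lists transcripts ending past the stem-loop, by up to 14432 bases for H2AC6, 7522 for H4C8 and 1024 for H2AX. The gene-level counts do not tell such transcripts apart. Capitals mark the arms that pair with each other, and coordinates are hg38.
H2AC6, chr6:26124669-26124684, plus strand: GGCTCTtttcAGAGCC
H2BC12, chr6:27146366-27146381, minus strand: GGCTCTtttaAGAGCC
H4C8, chr6:26285131-26285146, minus strand: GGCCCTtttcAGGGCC
H2AX, chr11:119094898-119094913, minus strand: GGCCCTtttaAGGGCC

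The second feature is the promoter. RefSeq promoters (GRCh38.p14), running from 250 bases before to 50 bases after the start, matched 53 of the 56 genes, 44 of them clustered. TATAAA, searched on both strands like the other motifs, was present in 30 of 44 clustered promoters (68.2%) against 11.5% of all 35116 promoters. CCAAT was present in 37 of 44 (84.1%) against 34.6%, in every H1, H2A, H2B and H3 promoter and in 0 of 7 H4 promoters. The octamer ATTTGCAT was present in 17 of 44 (38.6%) against 1.77%, in 7 of 11 H2A and 10 of 13 H2B promoters. Windows of neighbouring genes on opposite strands can overlap, so a site can count for both genes, as the octamer of H2AC6 does for H2BC4. The numbers of promoters are thus not numbers of separate sites. The promoters of the clustered genes with the most VprBP sh counts in H2A and in H2B and of the gene with the largest fold change are shown, with any motif in capitals on either strand. A match is a description of the letters.
H2AC6, chr6:26123922-26124221, plus strand: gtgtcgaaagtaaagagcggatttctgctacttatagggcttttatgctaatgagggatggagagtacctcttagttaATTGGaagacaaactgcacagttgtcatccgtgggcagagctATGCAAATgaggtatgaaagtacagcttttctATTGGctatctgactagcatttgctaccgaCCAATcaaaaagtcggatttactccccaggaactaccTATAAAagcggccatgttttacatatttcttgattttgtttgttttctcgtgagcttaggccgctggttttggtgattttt
H2BC12, chr6:27146809-27147108, minus strand: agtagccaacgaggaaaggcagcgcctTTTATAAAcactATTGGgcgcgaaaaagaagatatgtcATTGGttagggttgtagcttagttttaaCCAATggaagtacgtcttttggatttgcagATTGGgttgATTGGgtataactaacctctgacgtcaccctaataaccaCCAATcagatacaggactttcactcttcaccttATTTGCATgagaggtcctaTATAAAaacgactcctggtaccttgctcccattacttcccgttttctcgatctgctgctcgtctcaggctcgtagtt
H4C8, chr6:26285485-26285784, minus strand: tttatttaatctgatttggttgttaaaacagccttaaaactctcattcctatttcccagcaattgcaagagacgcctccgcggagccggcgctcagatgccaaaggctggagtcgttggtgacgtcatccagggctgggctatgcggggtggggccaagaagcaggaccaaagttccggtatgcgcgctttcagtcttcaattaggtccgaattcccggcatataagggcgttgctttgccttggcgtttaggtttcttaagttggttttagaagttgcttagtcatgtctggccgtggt

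The third feature is the codon for the threonine that VprBP is described to phosphorylate. A codon run for lysine, lysine and threonine was present in 13 of the 17 H2A genes, with threonine at position 120 when the start codon is not counted. These were all 11 clustered H2A genes, H2AJ and H2AX, and H2AZ1, H2AZ2, MACROH2A1 and MACROH2A2 lacked it. The coding sequence around it is shown for the main carriers (hg38), with the threonine codon in capitals. For H2AZ1 the end of the coding sequence is shown, and it is not aligned by codon number with the others.
H2AC6, chr6:26124581-26124610, plus strand: ctgcctaagaagACCgagagtcaccacaag
H2AJ, chr12:14774819-14774848, plus strand: ctgcccaagaagACGgagagtcagaagacg
H2AX, chr11:119095017-119095046, minus strand: ctgcccaagaagACCagcgccaccgtgggg
H2AZ1, chr4:99948465-99948494, minus strand: attgggaagaaaggacaacagaagactgtc

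Summed over all 45 clustered genes, histone counts were higher in VprBP sh. In CPM, the counts of a gene or class scaled to a common total of all counts, they made up 20.37, 18.02 and 17.00 in the Control sh samples against 251.0, 210.0 and 215.8 in the VprBP sh samples, and the groups did not overlap. The means were 18.5 ± 1.73 and 226 ± 22.2 CPM (SD, n = 3), a 12.2-fold ratio. Each of the families was higher in every VprBP sh sample than in any Control sh sample. The H3 genes, whose protein forms the core of the nucleosome with H4, had the largest ratio, 31.7-fold, from 0.668 ± 0.328 to 21.2 ± 2.20 CPM (SD, n = 3). This ratio rests on summed Control sh counts of 13, 22 and 9, and leaving out each sample gave log2 ratios of 4.69 to 5.42. The ratio was 15.7-fold for the H4 genes, 14.3-fold for the H2A genes, 12.8-fold for the linker H1 genes and 9.45-fold for the H2B genes, and no test was made of these sums. Values away from whole numbers, as when a read is divided between genes, were found for 22 of the 56 genes including H2BC12, H2AC18 and H4C14, and a sum does not depend on how reads were divided within its own class.

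**Figure D1:**
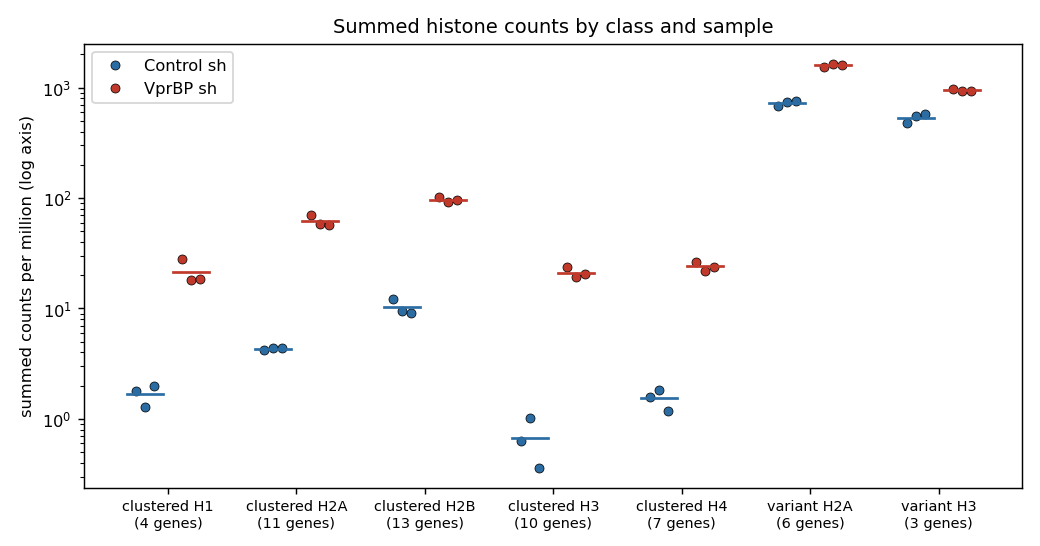
Summed CPM of each histone class (log axis), with 1 point per sample, Control sh in blue, VprBP sh in red and a line at the mean of 3 samples. The 3 VprBP sh points of each clustered family lie above its 3 Control sh points, by 9.45-fold for H2B to 31.7-fold for H3 in the means, and the variant classes differ by 1.76-fold for H3 and 2.19-fold for H2A.

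Gene by gene, many histone genes were called higher and 0 lower in edgeR's test. At an unadjusted p under 0.05, 0 were lower in edgeR and limma-voom and 1, H3-3B, was in DESeq2 and with TMM factors, and none of these tools called it. Of the 56 genes, 34 passed the low-count filter, 28 of these were called higher, 0 lower and 6 were not called, where 24.5% of all 16756 genes tested were called higher and 22.0% lower. A gene that passed the filter only through the group where it was high had to differ, so all 56 were also fitted with no filter. In that fit 41 were called higher and 0 lower, where 22.3% of 21494 genes were called higher. Every gene in the table had at least 10 counts summed over the 6 samples. A gene near 0 in Control sh is thus present only through VprBP sh. The fit with no filter and the comparisons over all 45 clustered genes keep that selection. With no filter, 37 of the 45 clustered genes were called higher, with a median log2 fold change of 3.36 against 0.05 over all genes. In 38 of the 45 clustered genes every VprBP sh value lay above every Control sh value, which held for 37.4% of all genes, and in 7 the groups overlapped. With at least 10 counts required in every sample, 7 clustered genes remained to be tested and all 7 were called higher, where 20.6% of 13103 genes were. In such bulk samples, more cells expressing a gene and more RNA per cell cannot be told apart.

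**Figure D2:**
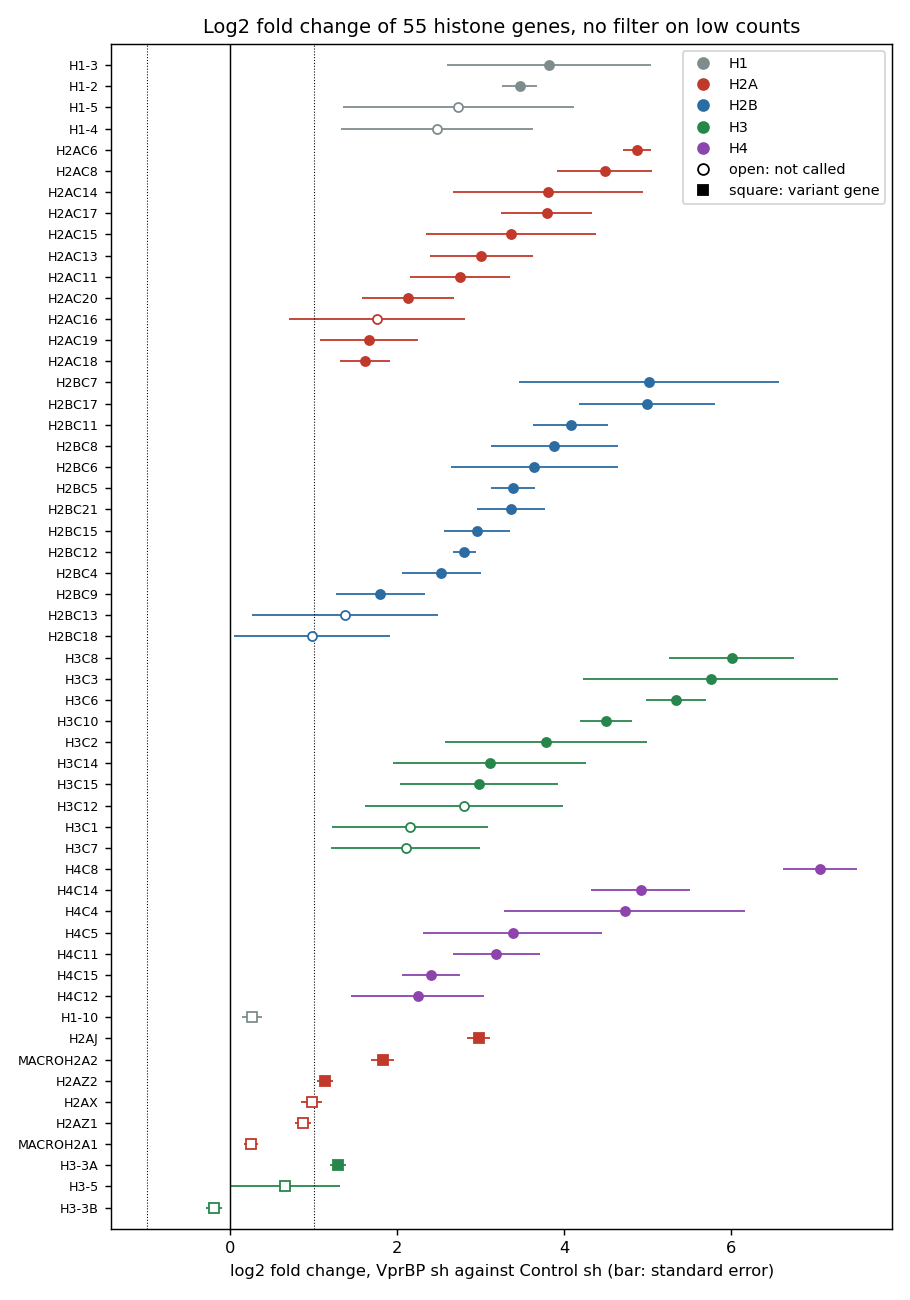
Log2 fold change of VprBP sh against Control sh for 55 histone genes in the fit with no filter on low counts, with the standard error as a bar, filled symbols for called genes and squares for variants. All 45 clustered genes lie above 0 and 37 are called, while the variants run from H3-3B just below 0 to H2AJ near the clustered genes.

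Among the clustered H2A genes, which hold the threonine codon described above, H2AC6 had the highest VprBP sh count. It had 31, 23 and 36 counts in the Control sh samples against 953, 862 and 1158 in VprBP sh, with no overlap. The log2 fold change was 4.90 with a standard error of 0.17 and an adjusted p of 9.18e-09. Its share of all clustered histone counts was 7.25% ± 1.33 in the Control sh samples and 20.6% ± 0.515 in VprBP sh (SD, n = 3). H2AC18 and H2AC19, which share reads, were 3.65-fold higher as a sum, from 2.42 ± 0.191 to 8.82 ± 0.668 CPM (SD, n = 3). H2AC19 alone had 23, 4 and 27 against 83, 22 and 89 counts, so its groups overlapped, and its adjusted p was 0.0287. H2AC8 had 0, 2 and 2 against 26, 33 and 52 counts, a ratio of sums of 24.9 with a 95% counting interval of 9.46 to 93.0. Clustered genes gave 0.590% ± 0.0217 of all H2A counts in the Control sh samples against 3.74% ± 0.514 in VprBP sh (SD, n = 3), so most H2A counts came from variants in both groups. These counts were not scaled by exon length, which was 17.0 kilobases for MACROH2A1 and 1.67 for H2AC6. The part of capture by the poly(A) tail was not tested, so the shares do not give the make-up of H2A mRNA.

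Among the H2B genes, H2BC12 had the highest level per length of all clustered genes. Its level was 12.9 ± 1.58 CPM per kilobase of exon in the Control sh samples and 106 ± 7.31 in VprBP sh (SD, n = 3). The counts were 150, 134 and 142 against 893, 1020 and 1512, with no overlap, a log2 fold change of 2.83, a standard error of 0.13 and an adjusted p of 5.71e-08. Its share of the clustered counts was 34.5% ± 0.965 in the Control sh samples and 23.4% ± 3.42 in VprBP sh (SD, n = 3). H2BC5 had 63, 23 and 52 counts against 492, 504 and 641, a log2 fold change of 3.41 with a standard error of 0.27 and an adjusted p of 2.35e-06. H2BC21, on chromosome 1, had 18, 15 and 13 against 251, 111 and 159 counts, a log2 fold change of 3.38 with a standard error of 0.42. Both genes were separated between groups in every sample.

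The H3 genes had the lowest summed Control sh counts of the clustered families. H3C6, the gene without the stem-loop in the searched window, had 6, 8 and 1 counts in the Control sh samples against 197, 218 and 292 in VprBP sh. Its log2 fold change was 5.36 with a standard error of 0.37 and an adjusted p of 7.94e-07, and the groups did not overlap. H3C10 had 4, 8 and 5 against 156, 115 and 168 counts, a log2 fold change of 4.52 with a standard error of 0.32 and an adjusted p of 1.06e-06. H3C8 had 0, 1 and 0 against 36, 20 and 42 counts, a ratio of sums of 87.9 with a 95% counting interval of 15.4 to 3508. Its log2 fold change was 6.03, and 7.98 without Control sh replicate 2, the only Control sh sample with a count.

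Among the H4 genes, H4C8 had the largest log2 fold change of all 56 genes when all 6 samples were used. It had 0, 1 and 1 counts in the Control sh samples against 102, 92 and 165 in VprBP sh, a ratio of sums of 161 with a 95% counting interval of 44.3 to 1335. H4C14 had 16, 1 and 1 against 240, 182 and 194 counts, a log2 fold change of 4.94 with a standard error of 0.62 and an adjusted p of 5.24e-05. Without Control sh replicate 1, which held most of its Control sh counts, the log2 fold change was 7.46. H4C15, which shares reads with H4C14, had 14, 31 and 15 against 76, 106 and 193 counts, and the pair was 13.0-fold higher as a sum. All 3 genes were higher in every VprBP sh sample than in any Control sh sample.

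The H1 genes encode linker histones that bind DNA between nucleosomes. H1-2 had 36, 26 and 42 counts in the Control sh samples against 459, 344 and 485 in VprBP sh, with no overlap, a log2 fold change of 3.49, a standard error of 0.22 and an adjusted p of 4.21e-07. The other 3 clustered H1 genes were near the detection limit in Control sh. H1-4 had 0, 1 and 7 against 38, 5 and 4 counts, so a single VprBP sh sample held most of its counts. H1-3 had 1, 0 and 0 against 11, 7 and 2 counts, and H1-5 had 0, 1 and 0 against 4, 0 and 6.

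Many clustered genes were barely detected in Control sh. In 23 of the 45, every Control sh sample had 3 counts or fewer, the limit taken for detection, which corresponds to 2.30 to 3.48 normalized counts. In 3 of them, H2BC7, H3C3 and H4C4, named after their values were seen, all 3 Control sh samples had 0 counts, and VprBP sh had 3, 1 and 9, 12, 5 and 3, and 2, 5 and 3 counts. Intervals and limits cover counting error only.

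The genes on the 2 chromosomes both had higher sums in VprBP sh. The 36 genes on chromosome 6 were 13.7-fold higher, from 13.9 ± 1.31 to 192 ± 15.5 CPM, and the 9 on chromosome 1 were 7.52-fold higher, from 4.52 ± 0.742 to 34.0 ± 6.81 CPM (SD, n = 3). The 12 clustered genes for which GENCODE 44 lists a transcript ending over 100 bases past the stem-loop were 18.3-fold higher, from 6.31 ± 1.23 to 115 ± 15.01 CPM. Among these 12 are H2AC6, H2BC5, H3C10, H4C8, H4C14 and H4C15. The 32 genes annotated to end at the stem-loop were 8.32-fold higher, from 11.9 ± 0.440 to 99.2 ± 7.69 CPM (SD, n = 3). The difference between these ratios was not tested. The labels and the methods name different mRNA library kits, and the methods name mRNA capture beads, which take up RNA by its poly(A) tail.

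Head-to-head pairs of histone genes share the region between their starts. There were 9 such pairs within 1000 bases, 7 of them of 1 H2A and 1 H2B gene, and both partners passed the filter in 4. With no filter, both partners were called higher in 6 of the 9 pairs and 1 partner in the other 3. In that fit 37 of the 45 clustered genes were called higher on their own, as were 22.3% of all genes. Whether pairing added to this was not tested. The pairs are not all separate, since H2BC17 is paired with both H3C12 and H2AC17. The start of H2AC17 lies between those of H3C12 and H2BC17. In H2BC4 and H2AC6, 219 bases apart, the log2 fold changes were 2.55 and 4.90, with standard errors of 0.46 and 0.17. In H2BC11 and H2AC11 they were 4.10 and 2.77, in H2BC8 and H2AC8 3.90 and 4.50, and in H2AC17 and H2BC17 3.81 and 5.01. All of these but H2AC6 had 10 or fewer counts in every Control sh sample, and single libraries moved their values. Without Control sh replicate 2, H2BC4 was at 3.38, H2AC11 at 3.57, H2BC8 at 5.15 and H2BC17 at 6.97. Without Control sh replicate 3, H2BC11 was at 4.79, H2AC17 at 4.64 and H2BC8 at 3.28. The order of the partners was not tested.

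**Figure D3:**
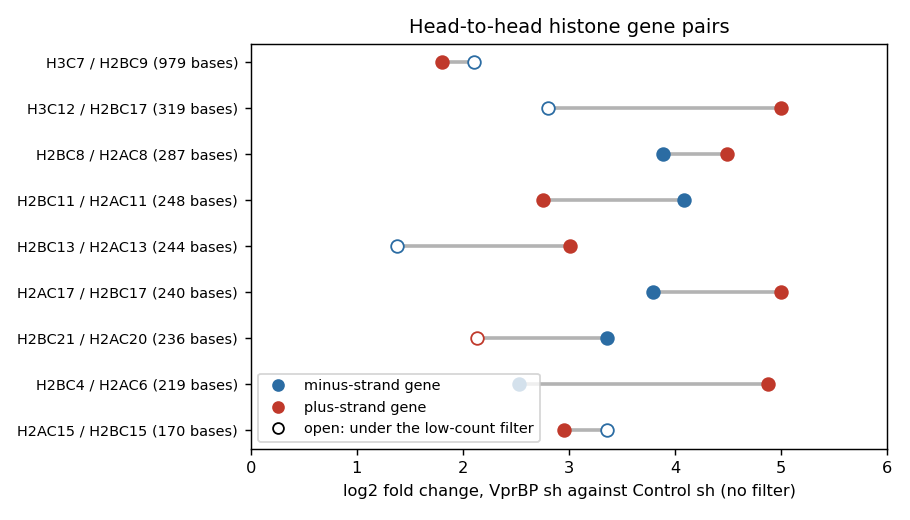
Log2 fold change, with no filter on low counts, of the minus-strand (blue) and plus-strand (red) gene of each of the 9 head-to-head histone gene pairs, ordered by the bases between their starts, with open symbols for genes under the low-count filter. All partners lie above 0.

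The variant genes had larger summed counts than the clustered genes, and the ratio of their sums was smaller. Their sum was 1694 ± 13.0 CPM in the Control sh samples and 3251 ± 41.8 in VprBP sh (SD, n = 3), a 1.92-fold ratio. Of the 11, 10 passed the filter, 4 were called higher, 0 lower and 6 were not called, where 24.5% of all genes tested were called higher and 22.0% lower. H2AJ, an H2A variant that carries the threonine codon, had 265, 255 and 424 counts against 2149, 2700 and 3499. Its log2 fold change was 3.00 with a standard error of 0.14 and an adjusted p of 7.33e-08, and its groups were far apart. MACROH2A2, an H2A variant with a large globular domain, had 522, 428 and 484 against 1435, 1854 and 2574 counts, a log2 fold change of 1.85 with a standard error of 0.14 and an adjusted p of 1.30e-06.

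H3-3A and H3-3B encode the same H3.3 protein, and only the former was called; the difference between them was not tested. H3-3A had 5045 ± 561 normalized counts in the Control sh samples against 12490 ± 516 in VprBP sh (SD, n = 3), with a log2 fold change of 1.31 with a standard error of 0.10 and an adjusted p of 1.48e-06. H3-3B had 7658 ± 554 and 6804 ± 793 normalized counts, and its log2 fold change of -0.17 had an adjusted p of 0.153, was not called, and was 0.041 when samples were scaled by library size alone. H2AZ2, which encodes an H2A.Z protein, had a log2 fold change of 1.16 with a standard error of 0.09 and an adjusted p of 2.64e-06, and H2AZ1, which encodes the other, had 0.89 with a standard error of 0.10 and an adjusted p of 2.25e-05 and was not called. H2AX, which marks DNA breaks when phosphorylated, had 0.99 with a standard error of 0.13 and an adjusted p of 7.23e-05, just under the required fold, and was called without VprBP sh replicate 1, at 1.14.

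The remaining variants had smaller differences. MACROH2A1 had a log2 fold change of 0.27 with an adjusted p of 0.0162 and was not called, and H1-10 had 0.29 with an adjusted p of 0.056 and overlapping groups. H3-5 did not pass the filter, with 5, 5 and 11 against 2, 18 and 18 counts.

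**Figure D4:**
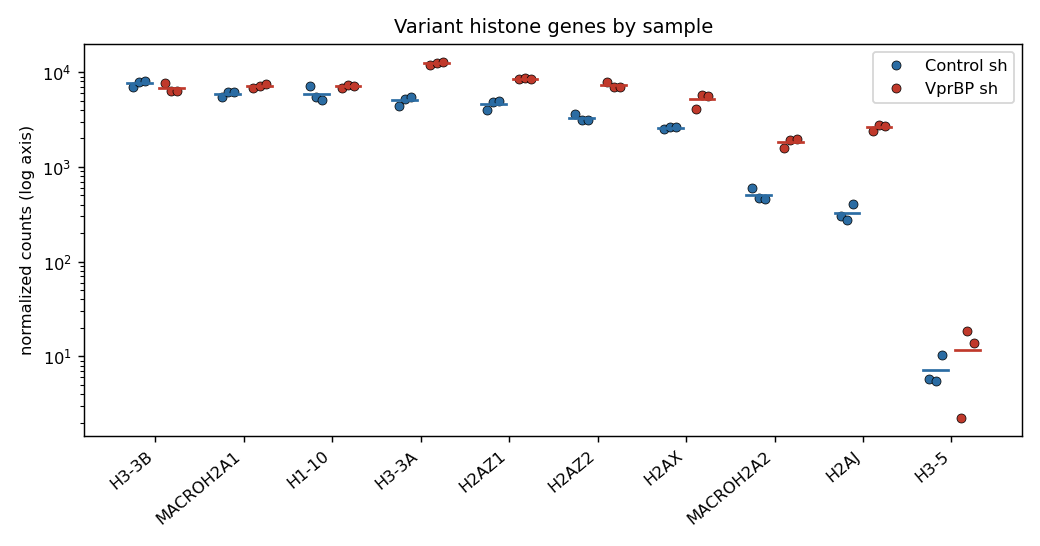
Normalized counts (log axis) of 10 variant histone genes, with 1 point per sample, Control sh in blue, VprBP sh in red and a line at the mean of 3 samples. H2AJ and MACROH2A2 are the most separated, H3-3B and H1-10 overlap between groups, and H3-5 is near the detection limit.

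Genes that transcribe histone genes or process their mRNAs had calls in both directions. Of 16 in the list, 3 were called higher, 2 lower and 11 were not called, against 24.5% and 22.0% of all genes tested, and the median log2 fold change was 0.43 against 0.08 over all genes tested. NPAT, the coactivator of histone gene transcription, had 289, 288 and 353 counts against 785, 749 and 1006, a log2 fold change of 1.30 with a standard error of 0.10 and an adjusted p of 2.51e-06. UPF1, which takes part in histone mRNA decay, had a log2 fold change of 1.09 and was under the required fold with TMM factors, at 1.00, and in DESeq2, at 0.97. ERI1, an exonuclease that acts on the stem-loop end, fell with a log2 fold change of -1.34 and an adjusted p of 4.63e-06, and POU2F1, which binds the octamer, fell with -1.23 and an adjusted p of 1.22e-05. SLBP, the stem-loop binding protein, named after its value was seen, had -0.61 and was not called.

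Among 28 histone chaperones and exchange factors, 4 were called higher, 4 lower and 20 were not called, against 24.5% and 22.0% of all genes tested. HJURP, the chaperone of the centromeric H3 variant, had 325, 382 and 411 counts against 1999, 1551 and 2111, a log2 fold change of 2.21 with an adjusted p of 5.40e-07. MCM2, a subunit of the replicative helicase that also binds H3 and H4, had 5171, 6319 and 7194 against 1256, 1615 and 2276 counts, a log2 fold change of -2.03 with an adjusted p of 1.35e-07. UBN1, a subunit of the HIRA complex that deposits H3.3, had 2506, 2439 and 2776 counts in the Control sh samples against 0 in all 3 VprBP sh samples, at least 934-fold lower against a floor of 3 counts per library.

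Of 20 S phase genes, 5 were called higher, 1 lower and 14 were not called, against 24.5% and 22.0% of all genes tested. RRM2, a subunit of ribonucleotide reductase, had a log2 fold change of 2.24 with an adjusted p of 9.39e-08, and CCNE1, the G1/S cyclin E1, had 1.97 with an adjusted p of 7.24e-06. TK1, thymidine kinase, fell with -1.16 and an adjusted p of 2.84e-06, and PCNA, the replication clamp, had -0.05 with an adjusted p of 0.712. The list had a median log2 fold change of 0.38, while that of the clustered histone genes with no filter was 3.36. The part of S phase in the histone result was not tested.

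Of 16 RNAs without a poly(A) tail listed to describe what the library caught, 4 were in the table and 3 were tested. RPPH1, the RNA of ribonuclease P, had 0, 3 and 3 against 15, 11 and 23 counts and was called higher, with a log2 fold change of 2.80 and an adjusted p of 0.00189. RN7SL1 and RN7SL2, RNAs of the signal recognition particle, had log2 fold changes of -0.71 and -0.96 and were not called, although RN7SL2 was called lower with TMM factors, at -1.06. RPPH1 had 3 counts or fewer in every Control sh sample and passed the filter through VprBP sh, so it could only be called higher. The other RNAs tested, RN7SL1 and RN7SL2, were lower in VprBP sh. The part of library capture in the histone result was not tested.

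**Figure D5:**
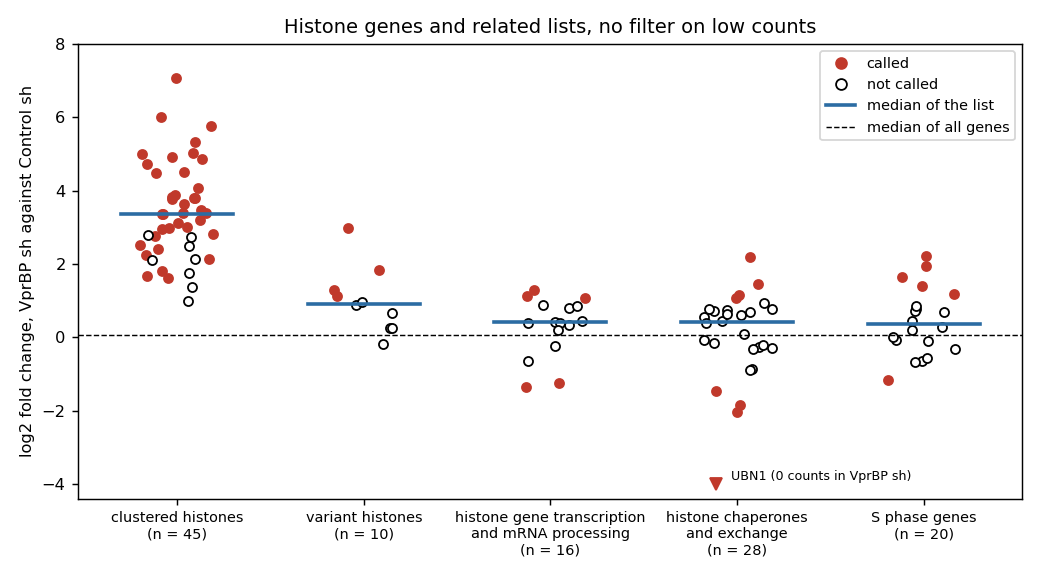
Log2 fold change of each gene of 5 lists with no filter on low counts, filled when called, with the list's median as a blue line and the median of all genes dashed. The median of the 45 clustered genes is 3.36, while the 4 other lists have medians below 1, and UBN1 is drawn as a triangle at the lower edge because it had 0 counts in VprBP sh.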

How the data were processed

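Total RNA of 3 Control sh and 3 VprBP sh samples was sequenced. Per the methods, the authors aligned 50-base single-end reads to hg38 with GENCODE 29 using STAR and quantified genes; the submitters' processing notes name Partek. The deposited table holds estimated counts, not normalized, of which 73.2% are whole within 1e-06. The labels name a SMARTER kit and the methods a stranded KAPA kit, and whether counting used strand is not given in the sources used here. In 22 of 56 histone genes a value lay more than 0.05 from a whole number, as when reads are shared between genes, and 25 overlap another gene, so single-gene values of near-identical or overlapping genes are uncertain.

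Counts were rounded and tested with edgeR 4.0.16 (glmQLFit and glmQLFTest, R 4.3.3) over all genes that passed filterByExpr with a minimum count of 10, with upper quartile factors and Benjamini-Hochberg adjustment. Calls required an adjusted p under 0.05 together with a fold change over 2. Standard errors were back-calculated as the absolute log2 fold change over the square root of the test's F statistic. Normalized counts are scaled to the mean effective library size. Class sums were divided by all counts of the sample. The study's Gene Specific Algorithm was replaced by edgeR. Scripts were tested on simulated data. Alternatives were DESeq2 1.42.0, limma-voom (limma 3.58.1), TMM factors, library size, other filters, a replicate block and leaving out each sample. Gene models, stem-loops and codons came from GENCODE 44 and hg38; 54 of the 56 genes had the same coordinates there.

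The histone genes and lists were chosen with earlier results of these data known. Genes named were DCAF1, the 4 clustered genes of each family with the highest mean, variants averaging 100 or more normalized counts, the 5 called genes with the largest increase and decrease whose higher group averaged 100 or more, tested head-to-head pairs, genes at 3 counts or fewer in each sample of a group and at a mean of at least 10 in the other, and, per list, the 3 with the highest mean and the 3 called genes with the largest change. A few low clustered genes, H3-5 and SLBP were named after their values were seen. A variant gene is counted among the 56 and its single-gene result is not reported here.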

Additional observations from a re-analysis of the deposited data

How the results depend on the processing

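H2AX was also called with at least 10 counts in every sample, at 1.00. DESeq2, TMM factors, limma-voom, library size and the replicate block each called the 24 tested clustered genes higher, most of which passed the low-count filter through VprBP sh alone, so this count is no measure of stability, and no alternative that was run called a histone gene lower. With at least 10 counts in every sample, 4690 genes were called in place of 7778, 12 histone genes and 7 clustered genes were called higher, and 0 RNAs without a poly(A) tail were. With no filter, 37 clustered genes were called higher. With library size alone, under which the median over all genes moved from 0.08 to 0.29 (log2), 7 variants in place of 4 and 6 processing genes in place of 3 were called higher and 0 S phase genes lower, H2AZ1 (1.10) and H2AX (1.21) passed the required fold, TK1 (-0.94) did not, and CPSF2 (0.0094), DEK (0.031), H3-3B (0.041), PCNA (0.16) and SET (0.17) changed sign. The causes of these changes, beyond the number of genes tested, were not tested.

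The log2 ratio of the summed clustered counts was 3.61 by library size, 3.40 with upper quartile factors and 3.30 with TMM factors. In the same order of the latter factors it was 3.63 and 3.53 for H2A, 2.84 and 2.75 for genes ending at the stem-loop, 0.73 and 0.63 for all variants, 0.92 and 0.82 for variant H2A and 0.60 and 0.51 for variant H3. For H2AC18 and H2AC19 together it was 1.66 and 1.56. With TMM factors it was 2.93 for H2B.

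One RNA without a poly(A) tail, RN7SL2, was called lower (a count of 1 in place of 0) with DESeq2, TMM factors, limma-voom and the replicate block, and leaving out each sample gave 0 to 1. Leaving out each sample gave 24 to 26 clustered genes called higher of 24 to 26 tested, where 7949 to 8142 genes were called in all. For the reason given above, these counts are no measure of stability. H2AC19 lost its call without Control sh replicate 2, VprBP sh replicate 1 or VprBP sh replicate 3, at log2 fold changes of 1.22, 1.29 and 1.59. PCNA changed sign without Control sh replicate 2 (0.017) or 3 (0.015), and SET, from -0.13 without VprBP sh replicate 1, changed sign without VprBP sh replicate 2 (0.0081). Summing replicates 2 and 3 of each group, chosen after seeing the data, turned SET to 0.015 and called 26 clustered genes higher, all that were tested.

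Replicate numbers did not pair the samples, since the deviations of same-numbered samples correlated at -0.18, -0.06 and -0.12 over 12137 genes. With the replicate block, 7686 genes were called in all, and 28 histone genes were called higher. Genes with few Control sh counts have ratios limited by counting error.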
